A study of Homo sapiens with 4 samples.

Results

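TNF superfamily ligands are small proteins, most of them made as membrane proteins whose outer part folds into trimers that bind receptors of the TNF receptor superfamily. Some stay on the cell surface and act on a neighbouring cell, and others are cut off by proteases and act at a distance. Many of their receptors recruit TRAF adaptors, which lead to NF-kB and MAP kinase signalling, and some carry a death domain that can start apoptosis. On tumour cells, CD70 is a member known for contact with lymphocytes and natural killer cells.

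The 9 ligand genes described here are TNF, LTB, CD70, TNFSF4, TNFSF9, TNFSF10, TNFSF12, TNFSF13B and TNFSF15. They were taken as all probe sets that the PrimeView annotation pairs with exactly 1 symbol from that list, which gave 17 of the 49293 probe sets on each array. In the gene-level table they are 9 of 18132 genes, each represented by its brightest probe set. TNF and TNFSF12 had 1 probe set each, TNFSF10 had 3 and the other 6 genes had 2. Per the labels, the arrays came from Hs578T, a breast cancer cell line grown in medium with serum and insulin. Of the 4 arrays, 2 were labelled ELK3 knockdown, stable cells made with lentiviral shRNA against human ELK3 (replicates 1 and 5), and 2 were labelled ELK3 sh control (replicates 1 and 2). The labels do not say what the control shRNA targets, whether the replicate numbers stand for constructs, clones or cultures, or whether separate cultures were used, so p-values measure only the spread between these arrays, which may be technical. All values are RMA log2 signals, and a difference is always knockdown minus control.

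The targeted gene was lower in the knockdown arrays. The brighter ELK3 probe set had a log2 signal of 8.09 and 7.92 in knockdown replicates 1 and 5, against 10.05 and 10.07 in control replicates 1 and 2. It is of a type taken here as cross-hybridising. The dimmer ELK3 probe set had 4.71 and 4.70 in knockdown arrays, against 7.14 and 6.36 in control arrays (log2 difference -2.04). Its knockdown values were below the lower quartile of all values (5.011). The 2 groups stood far apart over the whole array: log2 signals correlated at r = 0.996 across probe sets within the knockdown pair and at 0.998 within the control pair, but at 0.902 to 0.904 between arrays of different groups. A total of 50.8% of genes passed a limma adjusted p of 0.05, 29.5% higher and 21.3% lower in the knockdown arrays. Group means of all 8 mesenchymal markers listed for this line were above the lower quartile of all values (5.011) in both groups. VIM, SPARC and CD44 were the brightest. Knockdown means of THY1 (5.014, against 11.97 in control arrays) and COL1A2 (5.30, against 13.67) lay close to that quartile. All 8 were lower in the knockdown arrays, where their linear signals summed to 14176 to 15100, against 81970 to 86879 in the control arrays. A mixed list held neurofilament, other neuronal, embryonic kidney and oncofetal markers. Of its 10 measured genes, 3 were higher and 2 lower. Their sums were 14820 to 16367 in knockdown arrays and 1293 to 1416 in control arrays. NEFL, UCHL1 and ENO2 were the brightest. UCHL1 (log2 difference 8.56), LIN28B (6.30) and NEFL (2.86) were the 3 that were higher. UCHL1 had the highest knockdown mean (13.33) and weighs most in the knockdown sums. The neuronal markers NEFM (-0.04), STMN2 (-0.14), ENO2 (0.10) and INA (0.48) did not pass. The kidney markers PAX8 (-1.06) and SALL1 (-1.96) were the 2 that were lower, and PAX2 (0.06) did not pass. Leukocyte markers (15 measured, CD79A, CSF1R and NKG7 the brightest) had 0 higher and 1 lower, CSF1R, and summed to 745 to 772 in knockdown arrays and 881 to 898 in control arrays, and PTPRC, which defines leukocytes, was below the lower quartile in both groups. Endothelial markers (6 measured, KDR, VWF and PECAM1 the brightest) had 0 higher and 2 lower, with the same counts at an unadjusted p for both lists, and summed to 332 to 339 in knockdown arrays and 422 to 430 in control arrays. The markers ESR1, PGR and ERBB2 had 0 called by limma (1 higher at an unadjusted p under 0.05), and summed to 498 to 529 in knockdown arrays and 452 to 470 in control arrays. The part of these shifts between the groups in the ligand results below was not tested. Whether both groups are of the cell line that the labels name was not tested either.

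At the gene level 4 of the 9 ligands were lower in the knockdown arrays (CD70, TNFSF12, TNF and LTB), beside 21.3% of all genes, and 0 of 9 were higher, beside 29.5% of all genes. At an unadjusted limma p under 0.05 the count of higher ligands was also 0, for genes and for probe sets. The other 5, TNFSF4, TNFSF9, TNFSF10, TNFSF13B and TNFSF15, did not pass. The median log2 difference over the 9 ligands was -0.19, and over all genes it was -0.01. By probe set, 5 of 17 were lower, beside 22.1% of all probe sets, and 0 were higher, beside 27%. The groups did not overlap for 7 of 9 genes, beside 75.3% of all genes, and for 11 of 17 probe sets, beside 74.5%. When the thresholds the submitters state, a fold over 1.5 with an unadjusted p under 0.05, were applied to the limma fit made here, CD70 and TNFSF12 passed, which is 2 of 9, beside 31.7% of all genes.

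**Figure D1:**
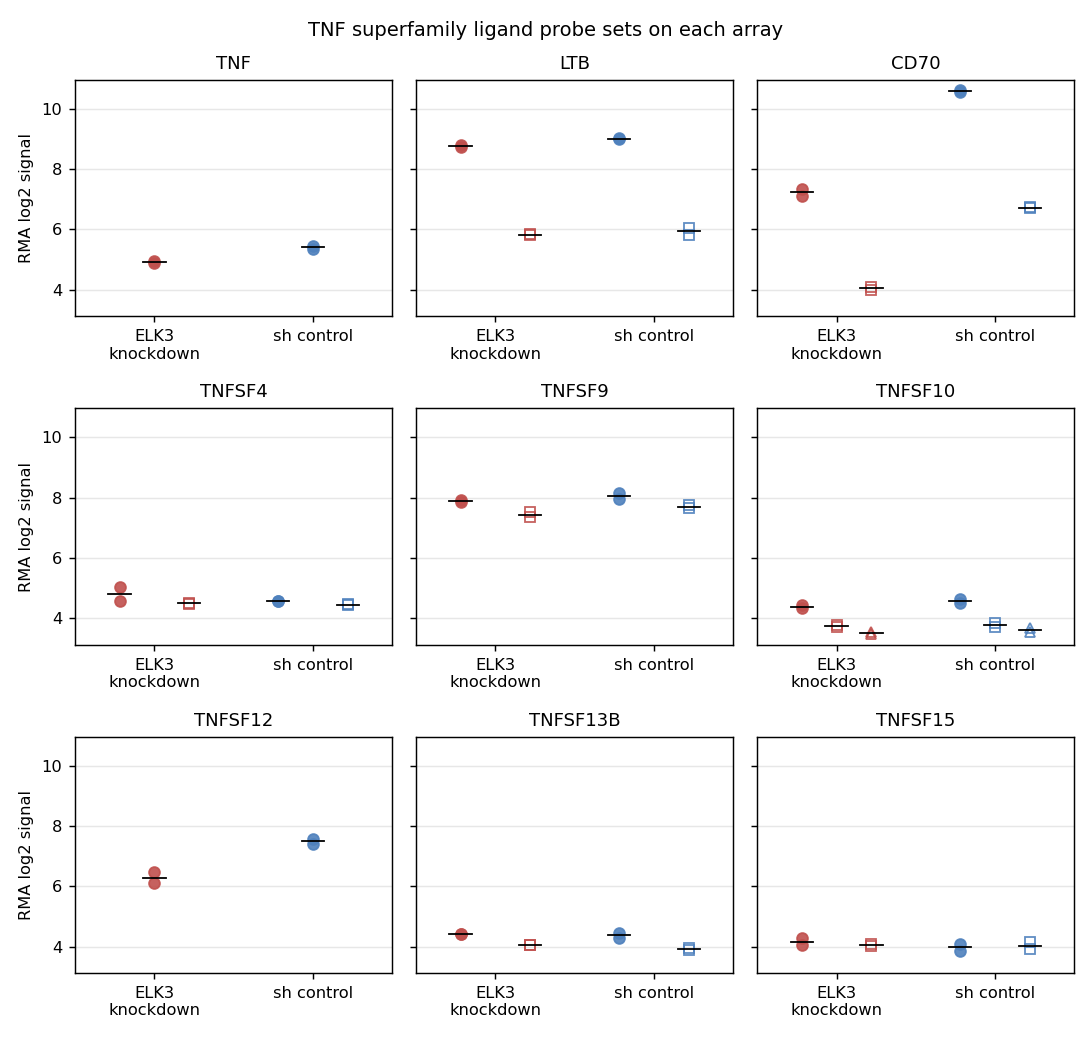
RMA log2 signal (y axis) of the 17 ligand probe sets on each array, by gene, with ELK3 knockdown (red) left of sh control (blue). Each point is an array, short black lines are means of 2 arrays, filled symbols are the probe set that represents the gene and open symbols its other probe sets. CD70 and TNFSF12 are visibly lower in the knockdown arrays, and the signals of TNFSF4, TNFSF10, TNFSF13B and TNFSF15 all lie between 3.47 and 5.02.

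CD70 showed the largest difference among the ligands. It encodes the ligand of CD27, a costimulatory receptor of T cells, B cells and natural killer cells. Its brighter probe set had a log2 signal of 7.35 and 7.13 in knockdown replicates 1 and 5, against 10.57 and 10.61 in control replicates 1 and 2. Both knockdown arrays were low and both control arrays were high, with over 3 log2 units between the groups. The mean was 7.24 ± 0.15 in knockdown arrays and 10.59 ± 0.029 in control arrays (SD, n = 2 each), a 10.2-fold lower signal (log2 difference -3.36, SE 0.10, limma adjusted p = 5.53e-07). The dimmer probe set had 3.999 and 4.09 in knockdown arrays, against 6.71 and 6.74 in control arrays. That is a log2 difference of -2.68 (SE 0.11, limma adjusted p = 1.76e-06 over all probe sets), or 6.41-fold lower, with a knockdown signal below the lower quartile of all array values (5.01), where the floor of the array limits how far a fold can grow. In a culture measured as a whole, fewer cells that express a gene and less RNA per cell cannot be told apart. Of the 18132 genes, 224 had a more negative log2 difference than CD70.

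TNFSF12, which encodes TWEAK, a ligand known for inducing inflammatory and repair programmes through the receptor Fn14, was the other ligand lower by more than 2-fold. Its single probe set had a log2 signal of 6.11 and 6.48 in knockdown replicates 1 and 5, against 7.41 and 7.59 in control replicates 1 and 2. The groups did not overlap, and the gap within the knockdown pair, 0.36, was the largest within-group gap of the 4 called ligands. The mean was 6.29 ± 0.26 in knockdown arrays and 7.50 ± 0.13 in control arrays (SD, n = 2 each), which is 2.30-fold lower (log2 difference -1.20, SE 0.15, limma adjusted p = 4.30e-04). With an ordinary linear model per gene and no moderation of the variance, the adjusted p was 0.0738 and the call was lost.

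TNF and LTB lie next to each other in the class III region of the major histocompatibility complex. TNF encodes tumour necrosis factor, the founding member of the family, and LTB encodes lymphotoxin beta, which anchors lymphotoxin alpha to the cell membrane in a complex that binds the lymphotoxin beta receptor. TNF and LTB were both called lower, so their promoters are shown, from 250 bases before to 50 bases after the transcription start, from RefSeq on GRCh38.p14. The TNF promoter is chr6:31575315-31575614 on the plus strand and the LTB promoter is chr6:31582376-31582675 on the minus strand, both 5′ to 3′ along the gene. Capitals mark a TATAAA box and GGGCGG, the core bound by SP1 (in TNF, as its reverse complement CCGCCC), and in LTB the NF-kB motif.
TNF: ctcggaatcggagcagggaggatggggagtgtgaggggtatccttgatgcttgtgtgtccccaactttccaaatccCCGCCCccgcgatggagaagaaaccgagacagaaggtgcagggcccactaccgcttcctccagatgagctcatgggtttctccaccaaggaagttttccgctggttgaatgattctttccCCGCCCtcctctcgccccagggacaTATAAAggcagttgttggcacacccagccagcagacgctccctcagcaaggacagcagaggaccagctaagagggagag
LTB: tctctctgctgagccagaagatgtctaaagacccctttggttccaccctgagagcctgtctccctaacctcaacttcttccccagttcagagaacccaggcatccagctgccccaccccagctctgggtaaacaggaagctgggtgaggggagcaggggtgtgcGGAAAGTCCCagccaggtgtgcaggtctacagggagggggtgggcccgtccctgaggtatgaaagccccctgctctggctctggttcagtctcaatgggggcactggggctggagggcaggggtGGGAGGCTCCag
In TNF the GGGCGG matches start at -174 and -54 on the minus strand, and TATAAA starts at -29. In LTB the NF-kB motif is matched at -86 on the minus strand and at 39 on the plus strand. RefSeq promoters were matched for 7 of the 9 members, TNF, LTB, TNFSF4, TNFSF9, TNFSF10, TNFSF13B and TNFSF15. None was matched for CD70 (log2 difference -3.36) or TNFSF12 (-1.20), the ligands with the largest differences, so the motif counts do not cover them. Each motif was searched on both strands over the same window in these and in all 34943 promoters of that length. The ETS core CCGGAAGT, which holds the shorter core CGGAAG, was matched in 0 of 7, beside 4.11% of all promoters, and CGGAAG in 0 of 7, beside 19.4%. GGAAG after a base other than C was not searched for. It occurs unmarked, as aggaag, in both printed windows, and its share over all promoters was not counted, so these counts do not show that ETS-type letters are absent. The CArG box, which binds serum response factor, was matched in 0 of 7, beside 1.30%, TGANTCA of AP-1 in 1 of 7 (TNFSF15), beside 7.72%, and the NF-kB motif in 1 of 7 (LTB), beside 11.3%. The NF-kB motif was searched only as GGGRNNYYCC (R is A or G, Y is C or T, N is any base). The TNF window holds gggtttctcc unmarked, which differs from it by 1 letter. Such variants were not counted, so the NF-kB count does not show that NF-kB-type letters are absent. GGGCGG was matched in 2 of 7 (TNF and TNFSF9), beside 44.9%, and TATAAA in 3 of 7 (TNF, TNFSF9 and TNFSF10), beside 11.6%. A match describes letters in this window and not a bound site.

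The TNF signal was dim in all 4 arrays and slightly lower in the knockdown arrays. Its single probe set had a log2 signal of 4.94 and 4.88 in knockdown replicates 1 and 5, against 5.36 and 5.45 in control replicates 1 and 2. Arrays within a group lay within 0.09 of each other and the groups did not overlap. The log2 difference was -0.50 (SE 0.10, limma adjusted p = 0.00446), a 1.41-fold lower signal, with means of 4.91 ± 0.038 in knockdown arrays and 5.41 ± 0.063 in control arrays (SD, n = 2 each). The knockdown mean was below the lower quartile of all array values and the control mean was just above it.

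LTB was brighter and differed least of the 4 called ligands. The brighter probe set had a log2 signal of 8.82 and 8.73 in knockdown replicates 1 and 5, against 9.02 and 9.02 in control replicates 1 and 2. The log2 difference was -0.24 (SE 0.084, limma adjusted p = 0.0462), a 1.18-fold lower signal, with the groups apart. The dimmer probe set had 5.85 and 5.82 in knockdown arrays and 5.83 and 6.05 in control arrays, which overlap, and a log2 difference of -0.11 that did not pass (limma adjusted p = 0.531 over all probe sets). The call of LTB was lost without moderation of the variance (adjusted p = 0.0824), with the mean of both probe sets (-0.17, adjusted p = 0.123), without knockdown replicate 5 (-0.20, adjusted p = 0.0528), without control replicate 1 (-0.24, adjusted p = 0.248) and without control replicate 2 (-0.25, adjusted p = 0.240).

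TNFSF9 encodes the ligand of CD137, a costimulatory receptor of activated T cells and natural killer cells. It was measured well above the dim end of the array and did not pass. Its brighter probe set had a log2 signal of 7.85 and 7.92 in knockdown replicates 1 and 5, against 8.16 and 7.97 in control replicates 1 and 2. The groups did not overlap, but control replicate 2 lay close to knockdown replicate 5. The log2 difference was -0.18 (95% interval -0.43 to 0.08, limma adjusted p = 0.220). The other probe set had 7.37 and 7.51 in knockdown arrays and 7.76 and 7.65 in control arrays, a log2 difference of -0.27 (limma adjusted p = 0.0802 over all probe sets). TNFSF9 is the direct coding neighbour of CD70 on chromosome 19, where the 95% interval of the CD70 log2 difference was -3.60 to -3.12; the difference between the changes of these 2 genes was not tested.

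The remaining 4 ligands were at the dim end of the array in both groups. All 9 probe sets of TNFSF4, TNFSF10, TNFSF13B and TNFSF15 had group means below the lower quartile of all values (5.01), 0 of them passed in limma (also 0 at an unadjusted p under 0.05), and their log2 differences ran between -0.19 and 0.24. The deposited values come without detection calls, so they do not show whether the genes were expressed.

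TNFSF10 encodes TRAIL, which can trigger apoptosis through death receptors. Its brightest probe set had a log2 signal of 4.43 and 4.33 in knockdown replicates 1 and 5, against 4.63 and 4.50 in control replicates 1 and 2. The groups lay apart by less than the gap within either, and the log2 difference was -0.19 (95% interval -0.41 to 0.04, limma adjusted p = 0.148). The other TNFSF10 probe sets differed by -0.04 and -0.09, with groups that overlapped.

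TNFSF4 encodes the OX40 ligand, a costimulator of T cells. Its brighter probe set had a log2 signal of 4.58 and 5.02 in knockdown replicates 1 and 5, against 4.56 and 4.56 in control replicates 1 and 2. Knockdown replicate 5 was above the other 3 arrays, which were nearly level. The log2 difference was 0.24 (95% interval -0.12 to 0.59, limma adjusted p = 0.233). Without knockdown replicate 1 it was 0.46 and passed (limma adjusted p = 0.0115), so a call of TNFSF4 rested on knockdown replicate 5 alone. The other probe set did not show that array apart, with 4.48 and 4.51 in knockdown arrays and 4.46 and 4.42 in control arrays.

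TNFSF13B encodes BAFF, a survival factor of B cells. Its brighter probe set had a log2 signal of 4.42 and 4.44 in knockdown replicates 1 and 5, against 4.45 and 4.30 in control replicates 1 and 2. The groups overlapped, and the log2 difference was 0.05 (95% interval -0.16 to 0.27, limma adjusted p = 0.673). The other probe set differed by 0.13, with a limma adjusted p = 0.211 over all probe sets.

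TNFSF15 encodes TL1A, a ligand of the death receptor DR3 made mainly by endothelial cells and activated monocytes. Its brighter probe set had a log2 signal of 4.29 and 4.05 in knockdown replicates 1 and 5, against 3.86 and 4.09 in control replicates 1 and 2. The groups overlapped, and the log2 difference was 0.20 (95% interval -0.09 to 0.48, limma adjusted p = 0.221). The other probe set differed by 0.02, with overlapping groups.

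**Figure D2:**
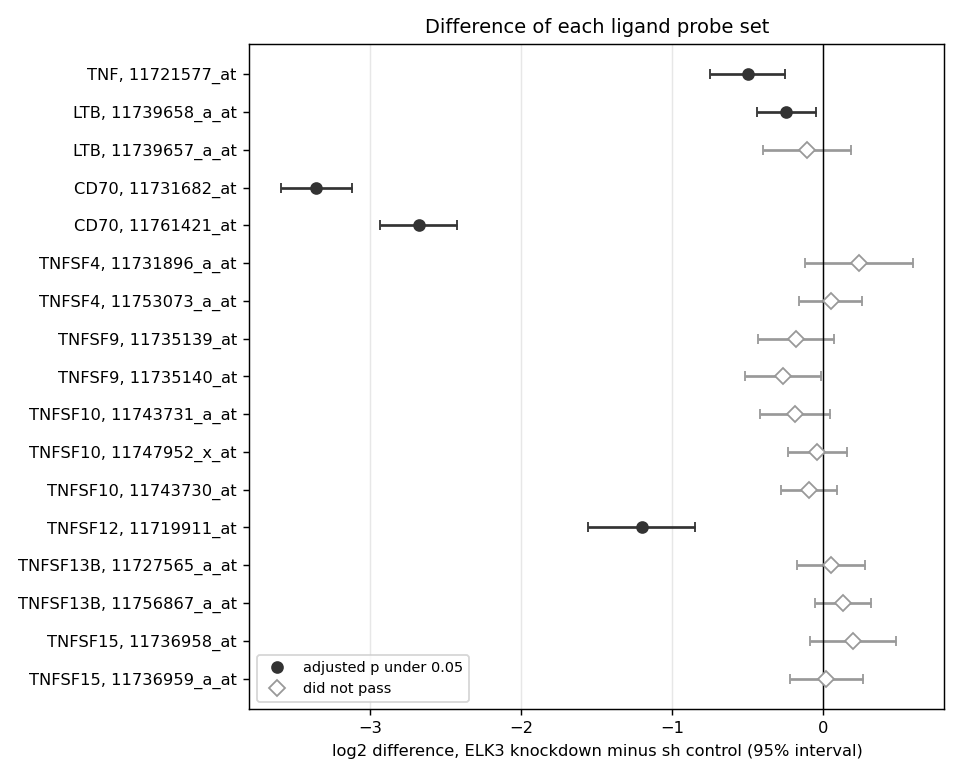
Log2 difference, ELK3 knockdown minus sh control (x axis), of each of the 17 ligand probe sets, with 95% intervals from the limma fit over all probe sets. Filled circles passed an adjusted p of 0.05 and open diamonds did not; the 5 filled probe sets belong to CD70, TNFSF12, TNF and LTB, and the probe sets of a gene lie on the same side of 0 in all 7 genes with more than 1.

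Probe sets of the same ligand did not differ in sign for any of the 7 genes with more than 1 probe set, although most of those differences did not pass. The 4 arrays can be split into equal groups in only 3 ways, which puts the smallest two-sided p of an exact permutation test at 0.333, so the calls rest on the variance that limma shares across genes. Without that moderation, the calls of LTB and TNFSF12 were lost. Among the receptor, ligand and pathway genes named here, so were those of TNFRSF1A (adjusted p = 0.152), TNFRSF25 (0.148), FASLG (0.0919), EDA (0.0995), ADAM10 (0.0531) and TIA1 (0.0698). The calls of the marker genes and of the genes nearest to CD70 were not checked in this way.

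Of the 9 ligand genes, TNF, LTB, CD70, TNFSF9, TNFSF4, TNFSF12 and TNFSF15 lie directly beside another gene of the family, and TNFSF10 and TNFSF13B do not. The neighbours were read from a list of 9 further ligands, 7 of which were measured. Of these 7, EDA, which acts in skin appendage development, was higher (0.50, limma adjusted p = 0.0109) and FASLG, the Fas ligand gene, was lower (-0.28, limma adjusted p = 0.0459). The FASLG call was lost when any of the 4 arrays was left out, when its probe sets were averaged (-0.18, adjusted p = 0.159), once cross-hybridising probe sets were removed (adjusted p = 0.0506) and with quantile normalization (adjusted p = 0.0519), and the EDA call without control replicate 1 (0.46, adjusted p = 0.0542). Next to TNF, LTA had a log2 signal of 6.71 and 6.74 in knockdown arrays and 6.92 and 6.88 in control arrays, a difference of -0.17 that did not pass (limma adjusted p = 0.226). TNFSF14, the other direct neighbour of CD70, stood at -0.06 (limma adjusted p = 0.755). TNFSF18, beside TNFSF4, stood at -0.14 (adjusted p = 0.406) and TNFSF8, beside TNFSF15, at 0.25 (adjusted p = 0.0959), and neither passed. TNFSF13, beside TNFSF12, and CD40LG were not analysed here.

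Of 16 measured receptors of the 9 ligands, 8 were lower in the knockdown arrays, beside 21.3% of all genes, while 1 was higher, beside 29.5%. The median log2 difference over the 16 receptors was -0.24. TNFRSF6B was not analysed here.

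For the 4 called ligands the receptor results were as follows. TNFRSF12A, which encodes Fn14, the TWEAK receptor, had a log2 signal of 10.44 and 10.18 in knockdown arrays and 12.45 and 12.49 in control arrays, a difference of -2.16 (SE 0.089, limma adjusted p = 2.01e-06). TNFRSF12A and its ligand TNFSF12 were thus both called lower. LTBR, the lymphotoxin beta receptor gene, had 9.07 and 8.96 in knockdown arrays and 9.98 and 9.97 in control arrays, a difference of -0.96 (limma adjusted p = 5.26e-05). CD27, the receptor gene for CD70, had 5.24 and 5.40 in knockdown arrays and 5.45 and 5.38 in control arrays, which overlap (difference -0.10, limma adjusted p = 0.500). Of the TNF receptors, TNFRSF1A, found on most cell types, differed by -0.28 (limma adjusted p = 0.0283), and TNFRSF1B, found mainly on immune and endothelial cells, by -0.20 (adjusted p = 0.179). The direction of TNFRSF1A rested on its probe set: once cross-hybridising probe sets were removed it stood at 0.17 and did not pass, and the call was also lost when its probe sets were averaged and without either control array.

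The TRAIL receptors went both ways although TRAIL itself did not pass. TNFRSF10A, which encodes the death receptor DR4, had a log2 signal of 9.37 and 9.10 in knockdown arrays and 8.04 and 8.02 in control arrays, and was the receptor that was higher (1.20, SE 0.11, limma adjusted p = 9.85e-05). TNFRSF10B, which encodes the death receptor DR5, had 9.72 and 9.73 in knockdown arrays and 10.77 and 10.88 in control arrays, a difference of -1.10 (limma adjusted p = 1.58e-05). The 2 death receptor genes were thus called in opposite directions. TNFRSF10D, a decoy receptor with a truncated death domain, differed by -1.21 (limma adjusted p = 2.71e-05), and the decoy receptor gene TNFRSF10C by -0.11 without passing. TNFRSF11B, which encodes osteoprotegerin, a secreted decoy receptor for RANKL and TRAIL, had 5.23 and 5.08 in knockdown arrays and 8.62 and 8.75 in control arrays. It showed the largest receptor difference, -3.53 (SE 0.12, limma adjusted p = 8.41e-07). Its knockdown mean (5.16) lay close to the lower quartile of all values (5.01), where the floor of the array can limit a fold.

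Among receptors of the other ligands, TNFRSF9 and TNFRSF25 were called lower. TNFRSF9, which encodes CD137, the receptor of TNFSF9, had a log2 signal of 5.42 and 5.42 in knockdown arrays and 7.16 and 6.99 in control arrays, a difference of -1.65 (limma adjusted p = 2.35e-05). Those knockdown values were not far above the lower quartile of all values (5.01). TNFRSF25, which encodes DR3, the receptor of TNFSF15, differed by -0.39 (limma adjusted p = 0.0258), a call that was lost when its probe sets were averaged (-0.12) and without control replicate 1 (-0.28). TNFRSF4, which encodes OX40, stood at 0.0031 and did not pass. The BAFF receptor genes TNFRSF13B (0.24), TNFRSF13C (-0.10) and TNFRSF17 (0.0042) did not pass either, and TNFRSF13B passed without knockdown replicate 1 (0.33, adjusted p = 0.0369).

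**Figure D3:**
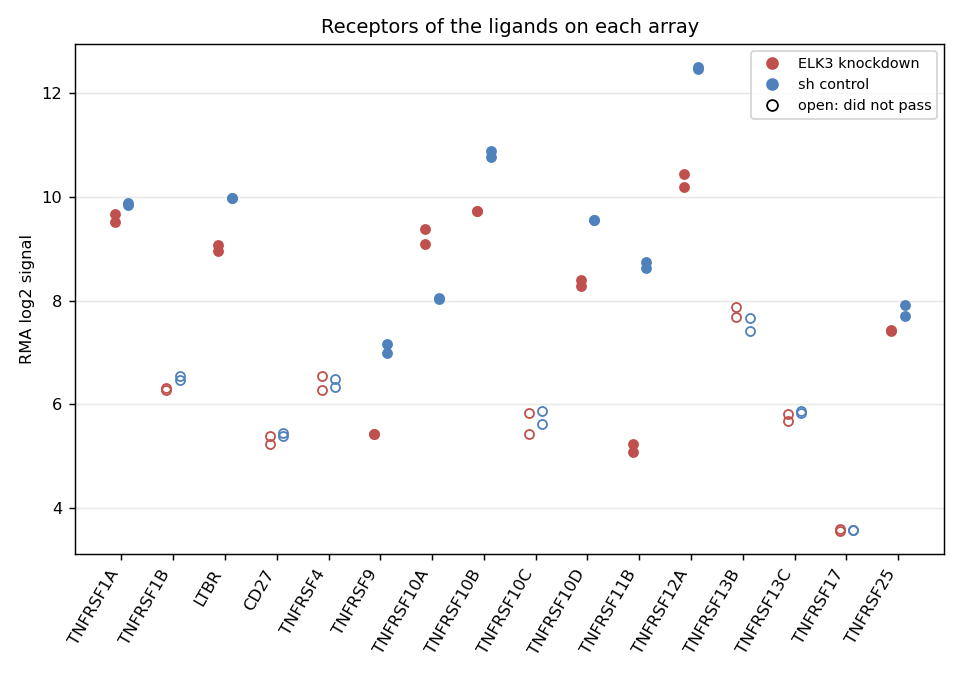
RMA log2 signal (y axis) of 16 receptor genes of the ligands (x axis), by their brightest probe set, with each ELK3 knockdown array (red) left of the sh control arrays (blue). Filled points are genes that passed an adjusted p of 0.05, 8 of them lower and 1, TNFRSF10A, higher in the knockdown arrays; open points did not pass.

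Of 15 measured adaptors, kinases and other regulators downstream of these receptors, 8 were lower, beside 21.3% of all genes, and 3 were higher, beside 29.5%. Their median log2 difference was -0.30. The 8 included TNFAIP3 and CYLD, which restrain NF-kB, so they are not a count of adaptors and kinases alone. The largest differences were those of TNFAIP3, which encodes the NF-kB feedback inhibitor A20 (-3.23, limma adjusted p = 1.51e-05), and CYLD, a deubiquitinase that also restrains NF-kB (-1.33, adjusted p = 4.37e-05). TNFAIP3 was at -2.56 once cross-hybridising probe sets were removed, and CYLD at -0.68 when its probe sets were averaged. TRAF6, a ubiquitin ligase adaptor (1.08, adjusted p = 1.22e-04), and MAP3K7, which encodes the kinase TAK1 (1.05, adjusted p = 4.50e-05), were higher. The listed genes RIPK1, TRAF2 and BIRC3 were not analysed here.

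A list of 8 genes of ligand release held 7 proteases and cofactors and the protease inhibitor gene TIMP3. Of the 8, 6 were lower, beside 21.3% of all genes, and 0 were higher, beside 29.5% (the same counts at an unadjusted limma p under 0.05), with a median log2 difference of -0.66. TIMP3, which acts against release, was among the 6, so 5 of the 7 proteases and cofactors were lower. TIMP3, an inhibitor of ADAM17, had a log2 signal of 7.13 and 7.01 in knockdown arrays and 12.48 and 12.47 in control arrays (difference -5.40, limma adjusted p = 1.14e-07, or -4.81 once cross-hybridising probe sets were removed). ADAM10, a sheddase, differed by -1.08 (adjusted p = 2.48e-04), SPPL2A, which cleaves the membrane stub of TNF, by -1.05 (adjusted p = 2.82e-05), and ADAM17, the enzyme that sheds TNF, by -0.71 (adjusted p = 2.49e-04). FURIN, a convertase that processes TWEAK and BAFF, stood at 0.04 and did not pass.

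Of 8 RNA-binding regulators of TNF mRNA, 3 were lower, beside 21.3% of all genes, and 3 were higher, beside 29.5%, with a median log2 difference of -0.08. The count of higher genes was 1 without control replicate 1 and 1 without control replicate 2. The count of lower genes was 1 once cross-hybridising probe sets were removed, which left ZFP36 without a probe set. ZFP36L1 (-1.67, limma adjusted p = 1.55e-05) and ZFP36, which encodes tristetraprolin (-1.46, adjusted p = 1.88e-05), both promote decay of AU-rich mRNAs. ZFP36L1 was at -0.67 when its probe sets were averaged, and at -0.33 once cross-hybridising ones were removed, where its call was lost. RC3H1, which encodes roquin and also promotes decay of TNF mRNA, was higher (0.81, adjusted p = 1.67e-04), and TIA1, which represses its translation, was lower (-0.79, adjusted p = 6.43e-04).

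The genes whose pattern over the 4 arrays was closest to that of CD70 were COL5A1, WNT5B and PRR16. Likeness was the Euclidean distance between 4 log2 values centred on each gene's own mean, and was 0.086 for COL5A1, 0.11 for WNT5B and 0.12 for PRR16. With 4 arrays in 2 tight pairs, this measure mainly picks genes with a similar difference, which was -3.28 for COL5A1, -3.28 for WNT5B and -3.42 for PRR16.

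**Figure D4:**
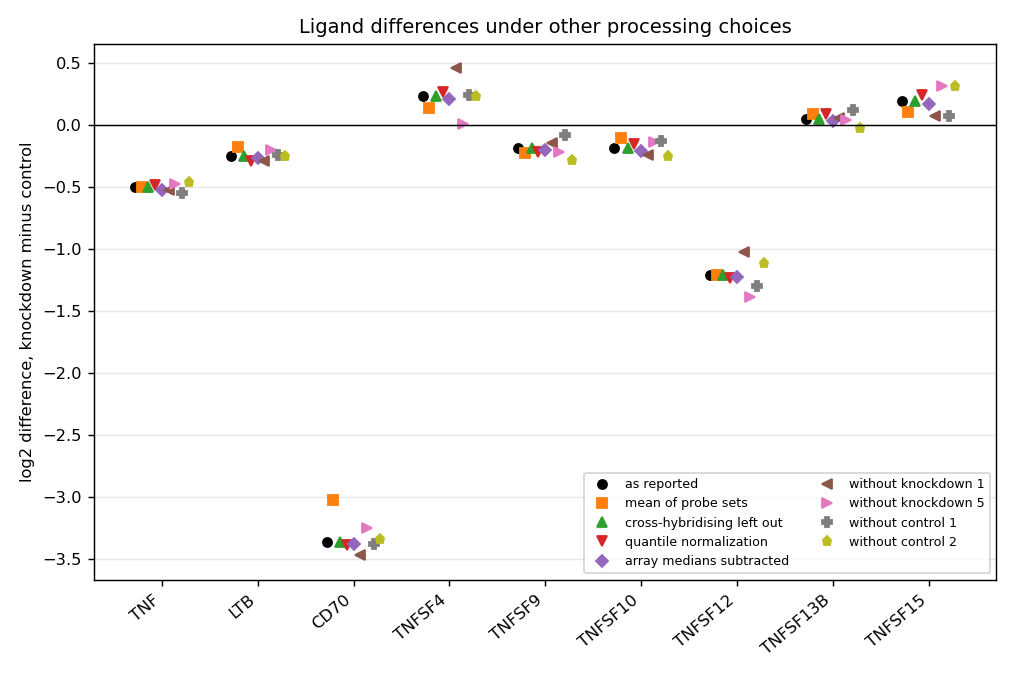
Log2 difference, ELK3 knockdown minus sh control (y axis), of the 9 ligand genes (x axis) as reported (black circles) and under 8 other choices of probe sets, normalization or arrays. CD70 stays between -3.47 and -3.02 and TNFSF12 between -1.38 and -1.02, while TNFSF13B falls on both sides of 0.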

How the data were processed

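The authors deposited log2 signals that were normalized with RMA, per the submitters' processing notes; its version and settings were not given in the sources used here. Per the labels' protocols, total RNA was amplified with a 3' in vitro transcription kit and biotin-labelled, and each sample had its own PrimeView array. Array medians lay between 6.76 and 6.80. Arrays have no read depth, so their number limits the precision. Of 49293 probe sets, 44988 had 1 gene symbol, 1832 had several and were given no gene name, and 2473 were unnamed here. Each of 18132 genes was represented by the probe set brightest on average across the arrays. The comparison used limma 3.58.1 (R 4.3.3; lmFit, eBayes with an intensity trend, two-sided, Benjamini-Hochberg over all genes), and again over all probe sets; residual degrees of freedom were 2 and the prior 4.83. Intervals are 95% from this fit. The fit was also run on simulated data in which only a small share of genes differed. That run does not test it for a share as large as the 50.8% called here. Probe sets ending in _x_at or _s_at were taken as cross-hybridising. Figures used matplotlib 3.10.9 in Python 3.11.15. The members, the gene and marker lists and the promoter motifs were chosen with earlier results of these data known. Named genes were the 9 ligands, ELK3, called receptors, up to 4 called genes of each pathway list, the 3 brightest of each marker list and the 3 genes nearest to CD70; uncalled receptors, PTPRC, FURIN, neighbouring ligands and other exceptions, and the choice of promoters, were added after values were seen. Promoters were matched by symbol to RefSeq on GRCh38.p14; the first listed start was used for LTB. Alternatives covered the moderation, probe sets, a filter on dim genes (mean under the median of all values, 6.78), normalization, thresholds and leaving out each array.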

Additional observations from a re-analysis of the deposited data

How the results depend on the processing

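Over 130 repeats of the 9 ligand results, 117 kept their direction and their side of the threshold. CD70 and TNFSF9 kept both under all 15 alternatives run for each, and TNFSF10 and TNFSF15 under all 14. Many repeats could not differ, so these are not counts of independent checks. Ligand directions could change only with averaged probe sets, other normalization or an array left out. The other alternatives left each ligand's log2 difference as it was. Stricter thresholds on the same fit could not call a ligand that had not passed. Without moderation of the variance 5091 genes passed (9219 as reported), 2 ligand genes were lower (4 as reported) and 3 ligand probe sets passed (5 as reported). With a fold over 2 added, 3204 genes, 2 lower ligands and 3 ligand probe sets passed. With the thresholds of the series' design text applied to the limma fit these counts were 5753, 2 and 3. Leaving out probe sets with a mean under the median of all values (6.78) also left 3 ligand probe sets. That cut is higher than the lower quartile used above for the dim end. With 1 array left out at a time, 7719 to 9673 genes passed, 3 to 4 ligands were lower, 0 to 1 were higher (TNFSF4, without knockdown replicate 1), 4 to 6 ligand probe sets passed, and ELK3 stood between -2.14 and -1.98. A lone array was then assumed to vary like the other group. The same repeats put genes that had not passed on both sides of 0: TNFSF13B (-0.020 to 0.13), TNFRSF4 (-0.13 to 0.13), TNFRSF10C (-0.32 to 0.095), TNFRSF17 (-0.017 to 0.025), TNFSF11 (-0.040 to 0.077), TNFSF14 (-0.20 to 0.082) and FURIN (-0.046 to 0.12). Quantile normalization turned TNFRSF4 to -0.014 and FURIN to -0.0064, subtracting array medians turned TNFRSF4 to -0.018, TNFRSF17 to -0.017 and TNFSF11 to -0.0028, and leaving out cross-hybridising probe sets turned TNFRSF1A to 0.17. The cause of these changes was not tested. No paired analysis was possible because the groups share only the replicate number 1.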
